A study of Mus musculus with 24 samples.

Results

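Clustered replication-dependent histone genes were taken as the protein-coding genes of a mouse RefSeq table (assembly GRCm38.p6) whose symbol follows the pattern of the H1f1 to H1f6, H2ac, H2bc, H3c and H4c series. The rule found 63 of 21887 protein-coding genes: 6 for linker histone H1, 17 for H2A, 16 for H2B, 12 for H3 and 12 for H4. It uses symbols only, and no measured value. All 63 lie in 3 clusters, formed by chaining genes no more than 500 kb apart: 22 in a proximal cluster on chromosome 13, 31 in a distal cluster on the same chromosome and 10 on chromosome 3.

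The measurements are lists of peaks of H3K9ac, histone H3 acetylated at lysine 9, called from chromatin immunoprecipitation and sequencing of day 5 embryoid bodies, cell aggregates in which mouse embryonic stem cells begin to differentiate. Null clones 4_C2 and 6_C4 (Gcn5-/-) were compared with clones 4_1 and 6_1 (Gcn5fx/fx), all of strain C57BL/6, with 2 replicates a clone and thus 4 lists a genotype. Clones 4_C2 and 4_1 form isolate pair 4, and 6_C4 and 6_1 form isolate pair 6, so each genotype rests on 2 clones. The labels do not say which part of Kat2a, the gene for Gcn5, was deleted or how, nor whether the replicates of a clone were separate cultures. All p-values therefore describe the spread between these libraries.

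Replication-dependent histone genes supply the protein that packages newly copied DNA. They are transcribed mainly in S phase at nuclear sites called histone locus bodies, where the coactivator NPAT is concentrated. As a rule their messages carry no introns and end in a stem-loop bound by SLBP instead of a poly(A) tail. Many copies are nearly identical, and adjacent H2A and H2B genes often share a promoter. Gcn5 is the acetyltransferase subunit of the SAGA and ATAC coactivator complexes, and H3K9ac is a mark of active promoters.

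Promoter sequences, from 250 bases before to 50 after the RefSeq start, were in the table for 58 of the 63 genes. H2bc4, H2bc21, H3c1, H3c7 and H4c14 had none. The first 4 shown are those of H2bc9 (chr13:23543395-23543694, minus strand), at which both peak lists of 1 null clone had no peak, H4c8 (chr13:23530794-23531093, plus strand) and H1f2 (chr13:23738557-23738856, plus strand), the most fully covered H4 and H1 genes, and H2bc12 (chr13:22035571-22035870, plus strand), which also holds an octamer. H2bc1 (chr13:23934107-23934406, minus strand) is a testis histone gene with no peak in any list. Capitals in these 5 mark every match, on either strand, to the TATA box (TATAAA), the CCAAT box (CCAAT), the octamer (ATTTGCAT), the GC box (GGGCGG) or the cyclic AMP response element (TGACGTCA).
H2bc9: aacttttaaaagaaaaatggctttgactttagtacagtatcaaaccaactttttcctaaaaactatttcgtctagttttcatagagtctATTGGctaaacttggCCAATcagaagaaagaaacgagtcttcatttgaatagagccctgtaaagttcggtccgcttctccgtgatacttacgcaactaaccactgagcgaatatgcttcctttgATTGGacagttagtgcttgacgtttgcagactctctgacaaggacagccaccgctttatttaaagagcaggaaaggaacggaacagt
H4c8: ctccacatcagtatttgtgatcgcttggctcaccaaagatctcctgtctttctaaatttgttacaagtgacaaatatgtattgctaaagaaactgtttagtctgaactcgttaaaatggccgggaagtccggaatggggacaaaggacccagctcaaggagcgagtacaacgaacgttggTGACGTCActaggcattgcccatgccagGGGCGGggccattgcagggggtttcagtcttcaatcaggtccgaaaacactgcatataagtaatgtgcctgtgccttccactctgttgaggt
H1f2: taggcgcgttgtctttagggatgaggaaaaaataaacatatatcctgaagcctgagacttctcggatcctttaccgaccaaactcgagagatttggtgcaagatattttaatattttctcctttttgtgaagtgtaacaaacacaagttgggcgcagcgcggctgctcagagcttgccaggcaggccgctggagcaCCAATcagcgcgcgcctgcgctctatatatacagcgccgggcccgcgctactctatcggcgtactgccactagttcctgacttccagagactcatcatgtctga
H2bc12: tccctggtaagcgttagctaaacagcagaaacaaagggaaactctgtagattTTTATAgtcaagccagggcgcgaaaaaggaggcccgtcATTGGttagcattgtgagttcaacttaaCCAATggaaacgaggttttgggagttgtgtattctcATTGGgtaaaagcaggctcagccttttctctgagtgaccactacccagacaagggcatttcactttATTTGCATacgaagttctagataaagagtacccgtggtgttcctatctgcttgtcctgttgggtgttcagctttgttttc
H2bc1: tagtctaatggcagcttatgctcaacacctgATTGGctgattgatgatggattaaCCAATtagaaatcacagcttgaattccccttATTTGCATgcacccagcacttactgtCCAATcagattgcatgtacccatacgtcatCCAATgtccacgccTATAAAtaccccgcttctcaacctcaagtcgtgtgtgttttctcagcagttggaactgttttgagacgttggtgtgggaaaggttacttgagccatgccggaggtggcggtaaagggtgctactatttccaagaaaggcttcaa

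The next 2 promoters, of H4c17 (chr13:21811496-21811795, plus strand) and H4c18 (chr13:21832148-21832447, minus strand), are shown because they are near copies of one another and lie where called peaks were missing. Capitals here mark the bases in any stretch of 50 that also occurs at another promoter of the RefSeq table. Aligned without gaps, they were identical at 298 of 299 bases.
H4c17: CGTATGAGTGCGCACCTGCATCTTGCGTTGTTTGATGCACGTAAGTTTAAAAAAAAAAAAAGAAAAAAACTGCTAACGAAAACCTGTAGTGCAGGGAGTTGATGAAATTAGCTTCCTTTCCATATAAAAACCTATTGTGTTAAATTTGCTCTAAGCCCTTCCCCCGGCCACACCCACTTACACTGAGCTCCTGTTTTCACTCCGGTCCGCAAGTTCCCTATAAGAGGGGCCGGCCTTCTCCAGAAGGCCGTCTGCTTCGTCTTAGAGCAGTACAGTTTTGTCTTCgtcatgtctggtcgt
H4c18: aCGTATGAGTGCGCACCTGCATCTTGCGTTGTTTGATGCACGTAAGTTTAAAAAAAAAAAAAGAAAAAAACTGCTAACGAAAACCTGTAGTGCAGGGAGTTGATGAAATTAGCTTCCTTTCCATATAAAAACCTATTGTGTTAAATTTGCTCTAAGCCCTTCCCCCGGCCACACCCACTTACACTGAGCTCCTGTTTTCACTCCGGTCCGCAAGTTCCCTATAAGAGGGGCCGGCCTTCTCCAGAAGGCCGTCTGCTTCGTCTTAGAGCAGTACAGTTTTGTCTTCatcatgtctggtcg

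TATAAA, the core of the TATA box, was found in 34 of the 58 promoters, or 58.6%, against 13.2% of 17434 promoters of other protein-coding genes. CCAAT, the binding site of NF-Y, was found in 86.2% and in 39.0% of these 2 sets. It was in all H1, H2A, H2B and H3 promoters in the table and in 3 of 11 H4 promoters. The octamer ATTTGCAT, bound by OCT1, was found in 20.7% of histone gene promoters, namely 6 of 17 H2A and 6 of 14 H2B promoters and no other, and in 1.66% of the others. GGGCGG, the core of a GC box, was in 37.9% of histone gene promoters and 46.4% of the others. TGACGTCA, the cyclic AMP response element, was in 6.90% and 2.31%. Both strands were searched and matches of different motifs could overlap. In 9 pairs of H2A and H2B genes, with starts 164 to 281 bp apart, the promoters of a pair overlap. A match there can count for both genes, so these promoters are not independent. A match describes the letters and is not a measured binding site.

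A gene was counted as marked in a library if any called peak reached into the 1000 bp on either side of either of its ends. By this measure 52 of the 63 histone genes, or 82.5%, had a peak in all 8 lists, against a background of 45.3% of all protein-coding genes. Another 6 had a peak in no list (9.52%, background 37.8%), and 5 had one in some lists only (7.94%, background 16.95%). All 8 lists held a peak at 5 of 6 H1, 14 of 17 H2A, 13 of 16 H2B, 11 of 12 H3 and 9 of 12 H4 genes.

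Histone genes with a peak numbered 54 and 52 in the 2 replicates of 4_C2 and 56 in each of 6_C4, against 56 in each of 4_1 and 57 in each of 6_1. The null mean was 54.5 ± 1.91 genes and the fx/fx mean 56.5 ± 0.577 genes (SD, n = 4 each). The ranges of the genotypes met at 56 genes, and the 2 lowest counts were both from 4_C2. Over all protein-coding genes, 53.7% had a peak in null lists on average and 56.0% in fx/fx lists, against 86.5% and 89.7% of histone genes. Without 4_C2 replicate 2 the difference between the genotype means, -2.0 genes, was -1.17 genes.

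The 8 lists held between 12041 and 20809 peaks, covering between 21.8 and 44.3 Mb, and the shortest was that of 4_C2 replicate 2. Covered length averaged 41.0 Mb in pair 6 and 27.5 Mb in pair 4. Sequencing depth is unknown for these lists, and no peak height was given, so a narrower or missing peak can reflect less acetylation, fewer acetylated cells or a shallower library, which cannot be told apart here. Kat2a had a peak in all 8 lists, which does not check the deletion. Of 6 pluripotency and epiblast markers, Sox2 and Fgf5 had a peak in all 8 lists, Pou5f1 and Nanog in 7, Otx2 in 6 and Zfp42 in 5. Each of 5 primitive streak and mesoderm markers had a peak in 4 to 6 lists. Of 4 endoderm markers, Sox17, Foxa2 and Gata6 had one in 5 lists and Gata4 in 1. The neuroectoderm markers Nes, Sox1 and Pax6 had one in 8, 7 and 1 lists. The blood markers Ptprc, Hbb-bh1 and Gata1 had none. Of 6 fibroblast markers, Dcn, Lum and Postn had none, Col1a1 and Col1a2 had a peak in 1 list each and Thy1 in 3.

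**Figure D1:**
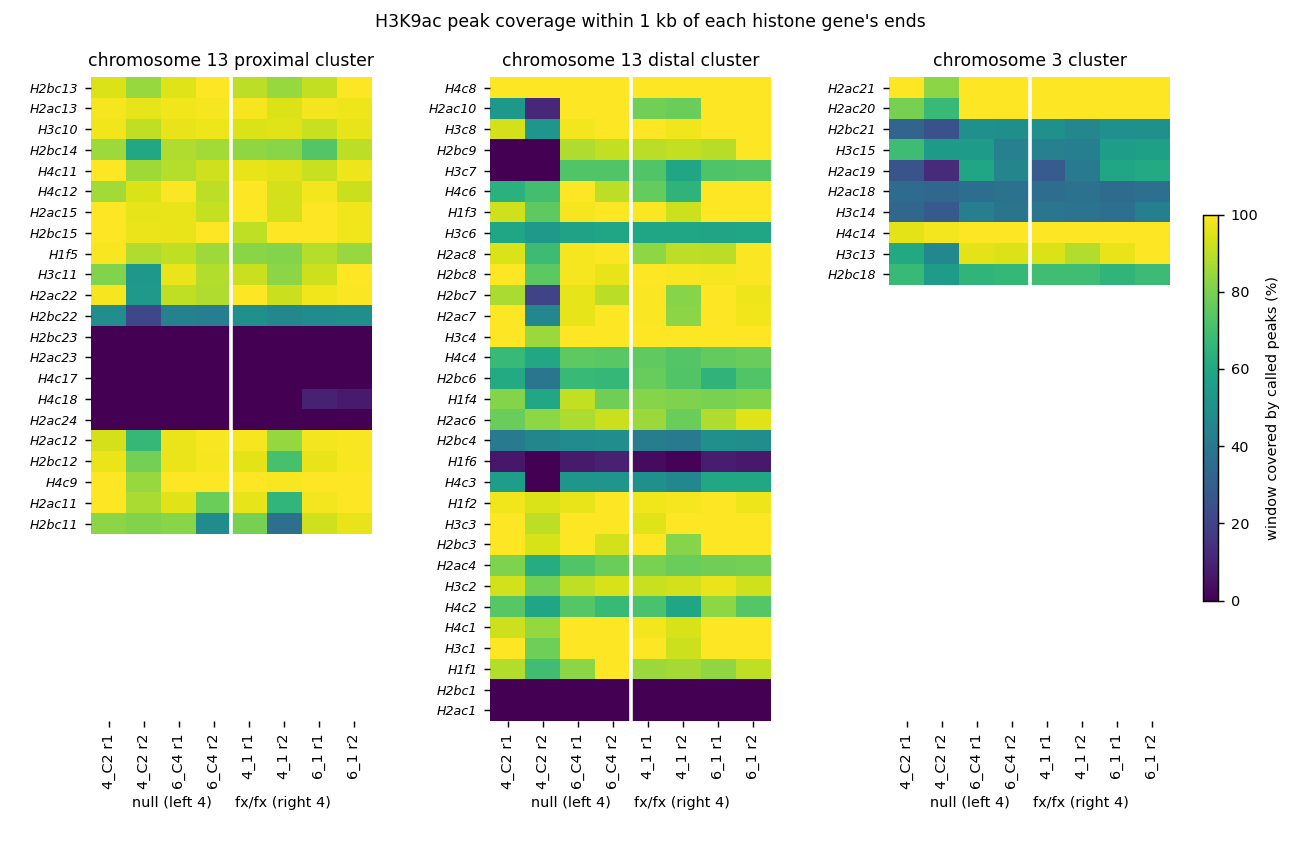
Share of the 1 kb windows around each histone gene's ends that called H3K9ac peaks covered, in percent, for 63 genes (rows, in chromosome order within each cluster) and 8 libraries (columns, null left of the white line, fx/fx right; r1 and r2 are replicates). The run from H2bc23 to H2ac24, H2bc1 with H2ac1, and H1f6 are dark in nearly every column, and H2bc9 with H3c7 are dark in the 2 columns of 4_C2 only.

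No histone gene had a peak in 4 of 4 null and 0 of 4 fx/fx lists (background 0%), nor in 0 of 4 null and 4 of 4 fx/fx lists (background 0.0457%, 10 genes). None had a peak in all pair 6 and no pair 4 lists (background 0.626%), or in no pair 6 and all pair 4 lists (background 0.0228%). Within pair 4, 2 histone genes had a peak in 0 of 2 lists of 4_C2 and 2 of 2 lists of 4_1 (background 1.14%), and none the other way round (background 0.233%). Within pair 6, 1 had a peak in 0 of 2 lists of 6_C4 and 2 of 2 lists of 6_1 (background 0.704%), and none the other way round (background 0.178%).

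The 2 genes of pair 4 were H2bc9, which encodes an H2B, and its neighbour H3c7, which encodes an H3. They are counted as genes, but they share 1 peak region, chr13:23541930-23545179. Peaks covered 0 and 0 bp of that region in 4_C2 and 2943 and 3013 bp in 6_C4, against 2983 and 2608 bp in 4_1 and 2958 and 3250 bp in 6_1. The region was thus absent from both lists of 1 null clone and of like width in both lists of the other null clone and in all fx/fx lists. Both genes had a peak in all 6 lists of the other clones and in 0 of 2 of 4_C2, a pattern shown by 170 of all genes (background 0.777%). The H2bc9 promoter printed above was covered over all its 300 bases in 6 lists and not at all in the 2 of 4_C2. The mean across all lists was thus 225 bases. No stretch of 50 bases in it recurred at another promoter.

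The 3 histone genes to the left of H2bc9, H4c8, H2ac10 and H3c8, had a peak within 1 kb of their ends in both 4_C2 lists. They share a peak region, so a peak at a neighbour can count for each. H4c8 was covered over its whole window of 2435 bp in all 8 libraries. H2ac10 had 1336 and 282 bp covered in 4_C2 and 2504 bp in each list of 6_C4, against 1970 and 1944 bp in 4_1 and 2504 bp in each list of 6_1. Both 4_C2 values lay below all 6 others. The H2ac10 promoter was covered in full in 6 of the 8 lists and not at all in the others, as was that of H2bc9. The mean of each was thus 225 bases. H2ac10 was singled out after its values were seen.

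**Figure D2:**
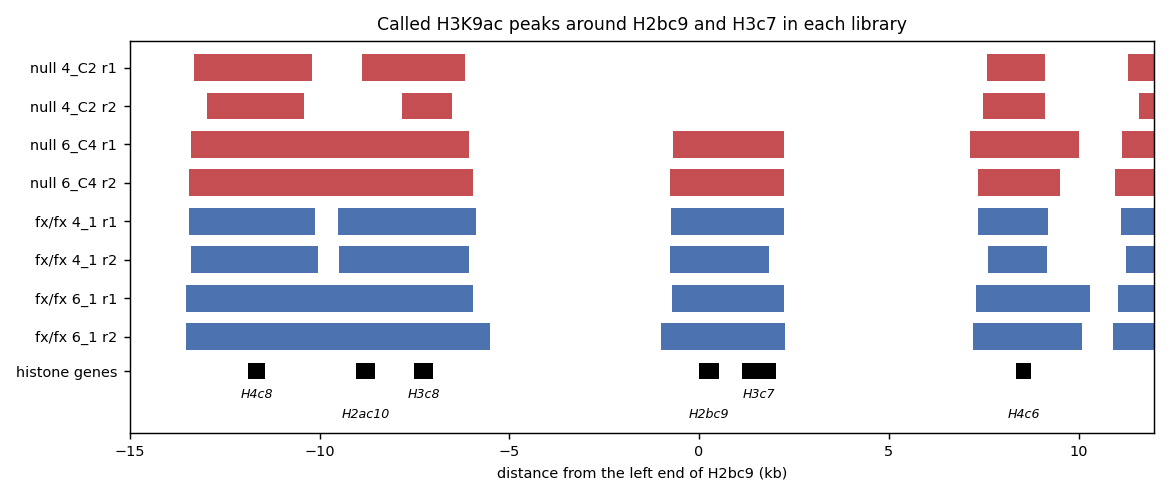
Called H3K9ac peaks (bars) in each of 4 null (red) and 4 fx/fx (blue) libraries around H2bc9 and H3c7, with histone genes as black boxes; the horizontal axis is the distance in kb from the left end of H2bc9. The peak over H2bc9 and H3c7 is missing from both 4_C2 rows and spans 2608 to 3250 bp in the other 6. H4c8, H2ac10, H3c8 and H4c6 have a peak within 1 kb of their ends in every row.

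The gene of pair 6 was H4c18. Peaks covered 0 bp of its window in all 4 null lists, against 0 and 0 bp in 4_1 and 219 and 177 bp in 6_1. Only the edge of a region at chr13:21830158-21831010 reached the window, and the promoter itself was covered in no list. Its difference was 0 bp when lists were cut to equal numbers of the widest peaks.

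H4c3 and the testis linker histone gene H1f6 had a peak in every list but that of 4_C2 replicate 2. That pattern was shown by 3.17% of histone genes (background 3.23%, 706 genes). Peaks covered 1320 and 0 bp within 1 kb of H4c3 in 4_C2 and 1253 and 1242 bp in 6_C4, against 1192 and 1113 bp in 4_1 and 1417 and 1411 bp in 6_1. Apart from that 1 list, the values of the genotypes overlapped. H1f6 counted only because the H4c3 peak reached its window: 24 to 250 bp were covered in those 7 lists, and its own promoter was covered in none.

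The 6 genes with no peak in any list fell in 2 places. H2bc1 and H2ac1, which encode the testis forms of H2B and H2A, form a pair at the right end of the distal cluster, and no stretch of 50 bases in their promoters recurred at another promoter. H2bc23, H2ac23, H4c17 and H2ac24 lie together with H4c18 between positions 21806412 and 21833475 of chromosome 13. In these 5 genes between 73.3% (H2ac24) and 100% (H2bc23) of the 50-base stretches of the promoter recurred at another promoter. Whether reads from them could be placed was not tested.

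Among all 9 histone gene promoters with at least 50% of their stretches recurring, 1 was covered in 8 lists (11.1%) and 6 in none (66.7%). The same class of 883 promoters of other genes was covered in 8 lists at 0.906% and in none at 97.7%. Below that share, 39 of 49 histone gene promoters were covered in 8 lists (79.6%) and 3 in none, against 47.0% and 36.7% of 16551 other promoters. The 9 included H2ac18 and H2ac19, identical at 249 of 260 aligned bases, and H3c14 and H3c15, identical at 284 of 285. With the 49 alone, histone genes with a peak averaged 46.0 ± 1.41 in null and 47.0 ± 0 in fx/fx lists (SD, n = 4 each). That split was chosen after the data were seen.

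Among the 52 genes with a peak in all 8 lists, peaks covered between 35.9% (H2ac18) and 100% (H4c8) of the window, with a median of 90.2%. The median over these genes was 92.6% and 69.5% in 4_C2 and 96.3% and 92.8% in 6_C4, against 93.1% and 83.4% in 4_1 and 96.9% and 97.7% in 6_1. The list of 4_C2 replicate 2 stood below the other 7, and the other 3 null medians lay within the fx/fx range. It alone gave the smallest value for 36 of the 52 genes, against a background of 49.2% of the 9912 protein-coding genes with a peak in all lists. The share of histone genes is 69.2%.

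The genotypes separated at none of the 52 genes. In 0 of the 52 genes did all null values lie below all fx/fx values (background 1.47%), and in 0 did all lie above (background 0.111%). All pair 6 values lay above all pair 4 values in 7 of the 52 (13.5%, background 15.0%), and in 0 did all lie below (background 0.151%).

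The widest and narrowest genes of each family show the span. H1f2 led the H1 genes, covered over 2649 ± 64.5 bp in the null and 2686 ± 28.7 bp in the fx/fx genotype (SD over 4 libraries each), and H1f6 came last. H2ac15 led the H2A genes with 2436 ± 93.1 bp (null) and 2479 ± 81.6 bp (fx/fx). H2ac18, the narrowest H2A gene with a peak, had 910 ± 39.0 bp (null) and 928 ± 20.7 bp (fx/fx). H3c4 led the H3 genes with 2410 ± 188 bp (null) and 2504 ± 0 bp (fx/fx), the null spread coming from 4_C2 replicate 2 alone.

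H3c14 was the narrowest H3 gene, with 949 ± 167 bp in the null and 1047 ± 75.3 bp in the fx/fx genotype (SD over 4 libraries each). Its promoter as RefSeq places it was covered in none of the lists. H2bc18 was the narrowest H2B gene with a peak in all lists, with 1588 ± 149 bp (null) and 1702 ± 45.3 bp (fx/fx). H2bc6, the widest H2B gene in bp, had 2348 ± 528 bp (null) and 2874 ± 193 bp (fx/fx), but its annotated span of 37455 bp gives it separate windows at its ends. Separate windows also apply to H2bc4, H2bc21 and H2bc22, of which 44.0% to 45.9% was covered. In every one of these pairs of means the ranges of the genotypes overlapped.

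Around start sites, 48 histone genes with a RefSeq start and a peak in all lists were compared with 8000 other genes of the same kind. Peaks covered a median of 92.4% of the 1 kb on either side of the start of histone genes and 88.5% of that of other genes. The median covered length at histone genes was 1823 bp over null libraries and 1938 bp over fx/fx libraries. At other genes it was 1730 bp over null libraries and 1818 bp over fx/fx libraries. At the start itself 84.4% of histone genes were covered in null and 90.1% in fx/fx libraries, against 94.6% and 95.5% of other genes. Among the 48 are H3c14, H3c15, H2ac19 and H2ac18, whose promoters mostly recur at another promoter and were covered in 0, 1, 6 and 8 lists. How far these genes lower the share of histone genes was not tested. By library the share of histone genes was 89.6% and 66.7% in 4_C2 and 89.6% and 91.7% in 6_C4, against 91.7% and 81.3% in 4_1 and 93.8% and 93.8% in 6_1. The lowest value of each genotype was that of its shortest list, and the other 3 null values lay within the fx/fx range. At 4000 bp before the start, 34.9% of histone genes were covered in null and 40.6% in fx/fx libraries, against 4.60% and 5.39% of other genes. Neighbouring histone genes lie within that distance, so the same peak can be counted for several of them.

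**Figure D3:**
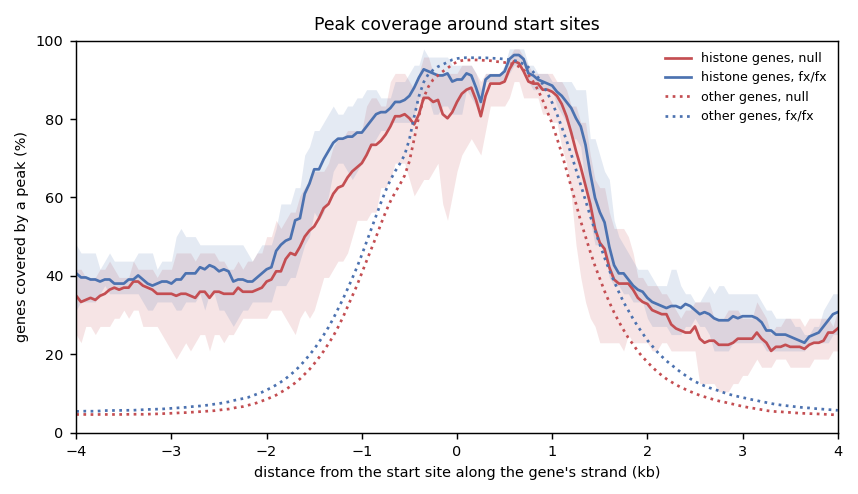
Percent of genes covered by a called peak against the distance from the start site in kb, along the gene's strand, as the mean of 4 null (red) and 4 fx/fx (blue) libraries, for 48 histone genes (solid, shaded range over libraries) and 8000 other genes (dotted). At -4 kb the solid lines stand at 34.9% (null) and 40.6% (fx/fx), and the dotted lines at 4.60% and 5.39%; the null range dips lowest in 4_C2 replicate 2.

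Histone genes often shared a peak region. After peaks of all lists were merged wherever they shared 1 bp or more, 37 regions touched the windows of histone genes, and 18 of them touched more than 1 gene. The region with the most, chr13:23569342-23577682, held H2ac8, H2bc8, H2bc7, H2ac7 and H3c4. Among the 58 genes with a strand in the RefSeq table, 9 pairs on opposite strands started back to back, each an H2A with an H2B gene, with starts 164 to 281 bp apart. The 5 genes without a strand, among them H2bc4 beside H2ac6 and H2bc21 beside H2ac20, could not be placed in pairs. In 7 of the 9 both genes lay in 1 region found in all lists. The other pairs were H2bc23 with H2ac23 and H2bc1 with H2ac1, which had no peak.

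Each gene was assigned 1 region, the one touching its windows over which peaks covered most bp. This gave 34 regions, of which 30 were in all 8 lists and could be tested for width. Their median covered length was 2968 bp, against 2302 bp over all 10171 regions found in all lists. Widths were tested on the log2 scale, centred on each library's median, by limma over all 10171 regions with isolate pair as a term and Benjamini-Hochberg adjustment at 0.05. Before centring, library medians were 0.14 lower in null than fx/fx and 0.26 higher in pair 6 than pair 4 on the log2 scale, so all changes are relative to those shifts.

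Of the 30 histone gene regions, 0 passed the test as narrower and 0 as wider in null than fx/fx libraries (background 0% narrower and 0% wider). Before adjustment, a limma p under 0.05 was reached by 1 narrower and 2 wider regions of the 30, against 327 and 378 of all 10171 regions. The median change was -0.01 over the 30 regions and 0.02 over all regions. Of the 30, 16 lay below 0 (53.3%, background 45.1%). The lowest adjusted p was 0.625, with changes between -0.44 and 0.20.

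The region with the lowest p covers H3c13 and H2bc18, an H3 and an H2B gene at the right end of the chromosome 3 cluster. Peaks covered 1754 and 1367 bp of it in 4_C2 and 2668 and 2645 bp in 6_C4, against 2635 and 2491 bp in 4_1 and 3403 and 3695 bp in 6_1. Null was below fx/fx within each pair, yet the raw values of the genotypes overlapped; after centring, 4 of 4 null libraries lay below all fx/fx libraries. The change was -0.44 ± 0.09 on the log2 scale (SE, limma adjusted p = 0.625). It was -0.58 ± 0.11 within pair 4 and -0.29 ± 0.11 within pair 6 (limma adjusted p = 0.16 and 0.999). The region does not pass the threshold over all regions.

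The region of H2ac15 and H2bc15 was next, with a log2 change of 0.20 ± 0.08 (SE). Peaks covered 3754 and 3062 bp of it in 4_C2 and 3587 and 3247 bp in 6_C4, against 3001 and 3301 bp in 4_1 and 3302 and 3401 bp in 6_1. These ranges overlapped. The region of H2bc13, H2ac13 and H3c10 had a log2 change of 0.18 ± 0.08 (SE). The others among the 8 lowest p-values were H3c11 (log2 change -0.20), H2ac21 with H2ac20 and H2bc21 (-0.20), H1f5 (0.13), H4c4 (-0.17) and H2ac12 with H2bc12 (0.15). The adjusted limma p of these 7 lay between 0.716 and 0.75. With lists cut to equal numbers of the widest peaks, the log2 change of H2ac12 with H2bc12 was 0.80 (limma adjusted p = 0.05005), also short of the threshold.

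The genotype effect was also tested for a difference between the isolate pairs. It passed in 0 of 30 histone gene regions in either direction (background 0% lower and 0% higher). At an unadjusted limma p under 0.05, 4 of the 30 were higher and 0 lower, against 281 and 396 of all 10171 regions. The lowest p was that of H2ac18, where the difference was 0.90 ± 0.27 on the log2 scale (SE, limma adjusted p = 0.602). Within pair 4, 6 of the 30 regions were narrower and 0 wider in null at the same unadjusted level, against 453 and 525 of all 10171. Within pair 6, 1 was narrower and 0 wider, against 311 and 141. After adjustment, 0 of the 30 passed within either pair. Over all regions, 7 were narrower and 1 wider within pair 4, and 0 passed within pair 6.

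Between the pairs, 1 of 30 histone gene regions was narrower in pair 6 than pair 4 (3.33%, background 2.52%) and 1 was wider (3.33%, background 4.32%). The wider region was that of H3c13 and H2bc18, with 3103 ± 529 bp in pair 6 and 2062 ± 603 bp in pair 4 (SD, n = 4 each). Its change was 0.36 ± 0.09 on the log2 scale (SE, limma adjusted p = 0.0415). The narrower was that of H4c11, with 2384 ± 117 bp in pair 6 and 2481 ± 235 bp in pair 4. Its change was -0.32 ± 0.07 on the log2 scale (SE, limma adjusted p = 0.0359). Its raw widths overlapped, and without centring the change was -0.05 (limma adjusted p = 0.657). Both calls were lost when any 1 of the 8 libraries was left out, with limma adjusted p between 0.0635 and 0.117 for H3c13 and between 0.0631 and 0.106 for H4c11.

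**Figure D4:**
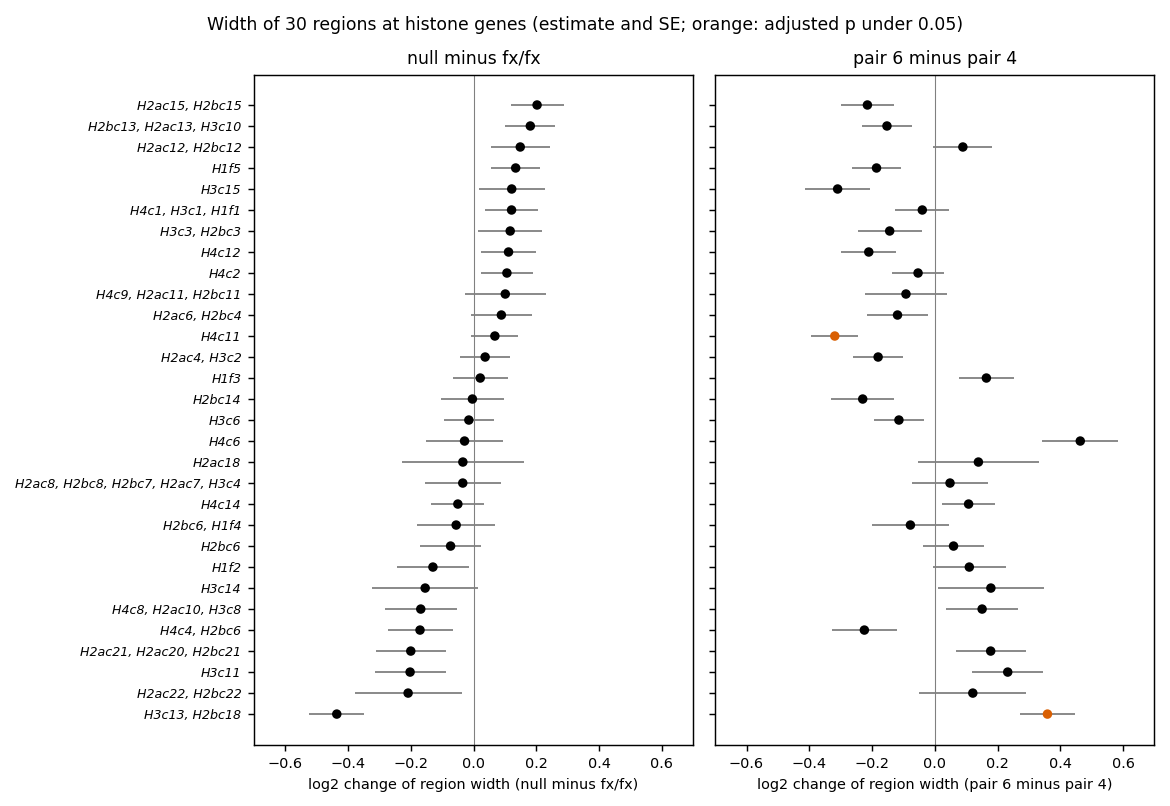
Log2 change of the width of 30 histone gene regions after centring on each library's median, null minus fx/fx (left) and pair 6 minus pair 4 (right); points are limma estimates, bars are SE, and orange marks an adjusted p under 0.05. The left panel spans -0.44 (H3c13, H2bc18) to 0.20 (H2ac15, H2bc15) with no region called, and the right panel has 2 orange points, H4c11 and H3c13 with H2bc18.

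The clusters were also measured whole, from 1 kb before the first to 1 kb after the last histone gene. The proximal cluster (chr13:21714711-22044658) had 54.5 and 33.6 kb covered by peaks in 4_C2 and 69.8 and 56.7 kb in 6_C4, against 52.3 and 44.9 kb in 4_1 and 73.6 and 70.6 kb in 6_1. The null mean was 53633.5 bp and the fx/fx mean 60349.5 bp, a ratio of 0.889. Pair 6 covered 1.46 times as much as pair 4. The difference between genotypes, -6.72 kb, was -0.0278 kb without 4_C2 replicate 2, and between -12.1 and -2.31 kb without each other library. It was -3.56 kb with lists cut to equal numbers of the widest peaks, and -1.34 kb when the cluster was cut at gaps of 100 kb, which keeps only its largest piece.

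The distal cluster (chr13:23530044-23935913) had 50.6 and 37.0 kb covered in 4_C2 and 58.8 and 55.9 kb in 6_C4, against 55.7 and 50.9 kb in 4_1 and 60.6 and 62.2 kb in 6_1. The null to fx/fx ratio was 0.882 and the ratio of pair 6 to pair 4 was 1.22. The chromosome 3 cluster (chr3:96218885-96271192) had 10.9 and 9.50 kb in 4_C2 and 15.8 and 15.3 kb in 6_C4, against 14.5 and 13.3 kb in 4_1 and 16.3 and 18.4 kb in 6_1. Its ratios were 0.824 and 1.37. In all 3 clusters the genotypes overlapped, and 4_C2 replicate 2 was the lowest list. Over all peaks of the genome the ratio of null to fx/fx was 0.873 and that of pair 6 to pair 4 was 1.49. Without 4_C2 replicate 2 the difference between genotypes was -2.24 kb, against -6.75 kb with it, in the distal cluster and -1.62 kb, against -2.74 kb, on chromosome 3.

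Peaks away from the gene windows took up a larger share of the proximal cluster than of the other two. In the proximal cluster peaks covered 65.4% of the windows around histone gene ends and 10.2% of the rest of the span. Covered length inside the windows was 1.07 times as large in pair 6 as in pair 4, and outside them it was 1.99 times as large. In the distal cluster 71.1% of the windows and 2.27% of the rest were covered, and on chromosome 3 62.7% and 7.28%. The ratios of pair 6 to pair 4 were 1.17 inside and 1.65 outside the windows in the distal cluster, and 1.19 inside and 2.80 outside on chromosome 3.

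**Figure D5:**
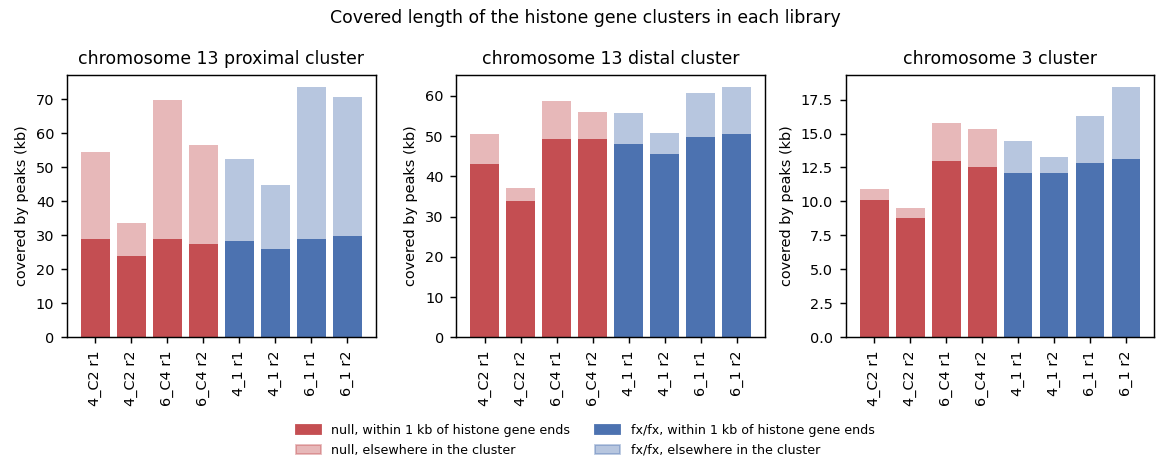
Length covered by called peaks, in kb, in each histone gene cluster and library (null red, fx/fx blue); the dark part lies within 1 kb of histone gene ends and the pale part elsewhere in the cluster. In the proximal cluster the dark part stays between 24.0 and 29.8 kb while the pale part runs from 9.54 kb in 4_C2 replicate 2 to 44.7 kb in 6_1 replicate 1.

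Other genes of the histone supply pathway were mostly marked in every list, against a background of 45.3% of all protein-coding genes. Of 40 genes for transcription and processing of histone messages, 39 had a peak in all 8 lists, among them Npat and Slbp. Nfyc, which encodes a subunit of NF-Y, had none within 1 kb of its annotated ends. All 39 regions were tested, and 0 were narrower and 0 wider in null libraries, with a median log2 change of -0.00078. The largest change in that list was that of Lsm1, which encodes a subunit of the cytoplasmic LSM ring, at -0.41 ± 0.15 (SE, limma adjusted p = 0.714), followed by the cyclin gene Ccna2 at -0.27 ± 0.10.

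Of 26 genes for histone chaperones and assembly factors, 25 had a peak in all 8 lists, and 0 of 25 tested regions passed in either direction (median log2 change -0.04). Hjurp, the chaperone of the centromeric H3 variant, had a peak in 4 null and 3 fx/fx lists. Nap1l1, a chaperone of H2A and H2B, had a value of -0.46 ± 0.21 on the log2 scale (SE, limma adjusted p = 0.72), short of the threshold. For Asf1b, which carries H3 and H4, the value was -0.24 ± 0.10. Of 13 genes for replication-independent histone variants, 10 had a peak in all 8 lists, and 0 of 11 tested regions passed (median log2 change 0.10). The H3.3 gene H3f3b had a peak in 3 null and 4 fx/fx lists, and the linker histone gene H1f8 and the gene H3f3c in none. At H2ax, which encodes the H2A variant of the DNA damage response, the value was 0.19 ± 0.10 on the log2 scale (SE, limma adjusted p = 0.724).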

How the data were processed

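Chromatin immunoprecipitation libraries for H3K9ac were analysed from 8 of 24 samples; the 16 total H3 and input samples were not used here. The authors deposited 1 peak list per library, with chromosome, start and end only, on mm10, and, per the submitters' processing notes, Bowtie 1.1.2 and MACS 1.4.2 were the tools. For the calling threshold and the control, nothing was found (not given in the sources used here). Peak starts were counted from 1.

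Members, gene lists and tests were chosen with earlier results of these data known. Genes named in the text were those with a peak in some lists, the regions with the 8 lowest limma p-values, the widest and narrowest gene of each family, the largest region of each cluster, genes with no peak, and up to 4 of each other list. Tests used limma 3.58.1 in R 4.3.3, and were tried on simulated widths; other steps used Python 3.11.15 with pandas 2.3.3 and numpy 2.4.6, and figures matplotlib 3.10.9. Promoter sequences are from RefSeq GRCm38.p6. Alternatives were other windows, overlaps, merging, centring, list lengths and models, and leaving out each library.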

Additional observations from a re-analysis of the deposited data

Results flagged for a closer look

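Each genotype's 4 libraries were examined for a value far from the other 3, for 37 quantities and 74 groups. Among them, 21 groups held such a value, where chance gives about 1 in 20 for independent values. The values are not independent, because each group holds 2 replicates of 2 clones. Neighbouring genes also share peaks, as do H2ac8, H2bc8, H2bc7, H2ac7 and H3c4 in 1 region. The count of 21 can therefore not be set against that rate. Covered length within 1 kb of a gene is capped by the window, so libraries that fill the window tie and a single partly covered library then stands apart.

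The far value was the lowest and came from 4_C2 replicate 2, the shortest list, in 11 null groups: 0 bp at H4c3, 2248 bp at H3c10, 2036 bp at H2ac21, 1675 bp at H2ac12, 1980 bp at H2bc12, 2129 bp at H3c4, 2028 bp at H4c9, 1755 bp at H2ac8, 1841 bp at H2bc8, 496 bp at H2bc7 and 1169 bp at H2ac7. It came from 4_1 replicate 2, the shortest fx/fx list, in 8 fx/fx groups: 1710 bp at H3c7, 1847 bp at H2bc21, 2121 bp at H2ac12, 1769 bp at H2bc12, 2377 bp at H4c9, 1626 bp at H2ac11, 2004 bp at H2bc7 and 2091 bp at H2ac7. In the remaining 2, it was 1197 bp at H2bc11 in 6_C4 replicate 2, the lowest null value, and 2515 bp at H2bc9 in 6_1 replicate 2, the highest fx/fx value.

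At H2bc11 the genotypes differed in opposite directions in the isolate pairs, by 587.5 bp (null minus fx/fx) in pair 4 and by -723 bp in pair 6. Peaks covered 2035 and 1998 bp in 4_C2, against 1952 and 906 bp in 4_1, and 2025 and 1197 bp in 6_C4, against 2284 and 2384 bp in 6_1. The difference between the pairs in these window values was not tested; for the region that H2bc11 shares with H4c9 and H2ac11 it was -0.46 on the log2 scale (limma adjusted p = 0.773).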

How the results depend on the processing

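Depth is unknown and peak heights were not given, so these results rest on called widths and overlaps. Counts of 0 histone genes separated between all lists of the genotypes or of the isolate pairs stayed 0 under every alternative run for them, and so did counts of histone gene regions called between genotypes. The test of a difference between pairs was repeated only with each library left out, and its count stayed 0. The difference in histone genes with a peak, -2.0 genes, was -1.0 with lists of equal length and with the 49 genes of mostly unrepeated promoter, and ran from -2.50 to -1.17 when a library was left out; the chromosome 3 cluster ran from -3.72 to -1.62 kb. Without centring, the median changes of the histone gene regions were -0.14 between genotypes and 0.22 between pairs, and 0 regions were narrower and 7 wider in pair 6. Between pairs, 0 regions were wider with regions in at least 4 lists, 2 with peaks merged across 500 bp, and with lists of equal length 3 were narrower and 0 wider (median -0.12). Covered length near the gene gave 0 calls in either direction. Leaving out a library gave 0 narrower and 0 to 1 wider. Signs turned for H1f5 without centring (-0.0014) and with merged peaks (-0.0033), for H3c11 with windows of 2 kb (0.13, where it takes the region of H1f5), and for H2ac21 (0.020) and H2ac12 (-0.017) with covered length near the gene. H2ac12 moved most with lists of equal length (0.80, limma adjusted p = 0.05005). The causes were not tested. The deviations of same-numbered libraries correlated over regions at 0.109 in pair 4 and 0.0624 in pair 6. Such a correlation cannot show a shift of a whole library. Replicate 2 had fewer peaks than replicate 1 in every clone. The counts were 12041 against 14947 in 4_C2, 17849 against 18932 in 6_C4, 13260 against 15315 in 4_1 and 18477 against 20809 in 6_1. The labels do not say whether same-numbered replicates were handled together. With a replicate block, 0 histone gene regions were narrower and 0 wider, the median change was -0.01, and the change at H3c13 was -0.44 (limma adjusted p = 0.717).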

Other observations

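Peaks in the proximal cluster away from histone genes lay mostly at transfer RNA genes, a comparison made after the data were seen. Of 22 peak regions there that touched no histone gene window, 18 lay near a transfer RNA gene, 3 near another protein-coding gene only and 1 near neither. Of the 31 transfer RNA genes of that cluster, 20 and 5 had a peak in 4_C2 and 27 and 22 in 6_C4, against 18 and 14 in 4_1 and 28 and 26 in 6_1. All pair 6 counts lay above all pair 4 counts, and the genotypes overlapped.

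Counting 1 more in the distal cluster, 12.5% of the 32 transfer RNA genes in histone clusters had a peak in all 8 lists, against 39.4% of the 376 elsewhere. The share in all 8 lists is limited by 4_C2 replicate 2, which had a peak at 5 of the 31 in the proximal cluster. On average 83.6% of the 32 had a peak in pair 6 lists and 47.7% in pair 4 lists, against 57.4% and 48.1% of those elsewhere.

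Among other protein-coding genes inside the clusters, Zfp184 and Pom121l2 had a peak in all 8 lists, and Prss16, Trim38, Slc17a1, Slc17a2, Slc17a3 and Slc17a4 in none. The histone genes H4f16, H2bu2 and H2aw, which lie outside the clusters and the symbol rule, had a peak in all 8 lists. H4bc24, which lies between H2ac24 and H2ac12, had none. H2aw was covered over its whole window of 2508 bp in all 8 libraries.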
